A study of Mus musculus with 10 samples.

Results

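The genes described here encode 6 surface ligands through which a B cell gives a T cell costimulatory or inhibitory signals: Cd86, Cd80, Icosl, Cd274, Cd83 and Cd70. They were chosen by symbol, and all 6 were among the 17658 genes of the deposited table. RNA had been sequenced from B cells of C57BL/6 mice aged 10 weeks, taken from spleen and lymph node and enriched with magnetic beads by removing other cells. The mice were Nr4a1+/+ (wild type) or Nr4a1-/-, and Nr4a1 encodes the orphan nuclear receptor Nur77, whose transcript appears soon after antigen receptor engagement. There were 4 groups: 1 library per genotype with no agent, and 4 libraries per genotype (A to D) after 2 hours with anti-IgM at 10 µg/mL, which engages the B cell antigen receptor by crosslinking it. No time in culture is listed for the unstimulated libraries, so effects of anti-IgM and of time in culture cannot be told apart. Changes given below as with anti-IgM may hold both. The labels do not describe how the Nr4a1-/- allele was made, which cells lack the gene, or whether the letters stand for separate mice, so p-values below measure only the spread between these libraries. The level of the Nr4a1 transcript overlapped between the genotypes. It was 126 FPKM in both unstimulated libraries. After anti-IgM it was 744 to 856 FPKM in wild type and 660 to 760 FPKM in the libraries labelled knockout, the term used throughout. Over the stimulated libraries it was lower in those labelled knockout, by a log2 difference of -0.20 (limma adjusted p = 0.0432).

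A T cell that recognizes antigen on a B cell also reads ligands of the B7 family on its surface. CD80 and CD86 bind the costimulatory receptor CD28 and the inhibitory receptor CTLA-4, ICOS ligand (Icosl) binds ICOS and sustains follicular helper T cells, and PD-L1 (Cd274) binds the inhibitory receptor PD-1. CD83 belongs to the immunoglobulin superfamily, marks activated B cells and mature dendritic cells, and opposes removal of CD86 and MHC class II from the membrane by the ubiquitin ligase MARCH1. CD70 is a ligand of the tumor necrosis factor (TNF) superfamily and binds CD27. Antigen receptor signaling alone raises several of these proteins on a B cell before T cell help arrives.

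In the mouse genome (GRCm38, GENCODE M21 annotation) the 6 genes lie on 5 chromosomes. Cd86 (chr16:36603869-36666081, minus strand, 8 exons) and Cd80 (chr16:38455561-38496335, plus strand, 7 exons) are 1.79 Mb apart. Cd274 (chr19:29367455-29388095, plus strand, 7 exons) ends 22.8 kb before Pdcd1lg2 (chr19:29410919-29471161, plus strand), which encodes the second PD-1 ligand, PD-L2. Icosl has 7 exons (chr10:78069302-78083913, plus strand), Cd83 has 5 (chr13:43784775-43803132, plus strand) and Cd70 has 3 (chr17:57145997-57149777, minus strand). Promoters, taken as 250 bases before to 50 bases after the start of transcription, came from RefSeq (GRCm38.p6) for Cd274, Cd80 and Icosl, 3 of the 6 ligands, and for Pdcd1lg2. Those of the neighbouring PD-1 ligand genes, which were both higher after anti-IgM, and of Icosl, which was lower, are shown 5′ to 3′ on the plus strand, at chr19:29367188-29367487 (Cd274), chr19:29410669-29410968 (Pdcd1lg2) and chr10:78069118-78069417 (Icosl), with matches to a kappa-B motif in capitals.
Cd274: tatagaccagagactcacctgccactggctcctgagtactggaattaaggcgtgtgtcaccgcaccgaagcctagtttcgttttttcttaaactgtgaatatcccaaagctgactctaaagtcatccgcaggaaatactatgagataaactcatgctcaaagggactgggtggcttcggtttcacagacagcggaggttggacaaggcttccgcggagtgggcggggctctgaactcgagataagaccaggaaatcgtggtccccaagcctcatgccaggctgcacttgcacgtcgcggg
Pdcd1lg2: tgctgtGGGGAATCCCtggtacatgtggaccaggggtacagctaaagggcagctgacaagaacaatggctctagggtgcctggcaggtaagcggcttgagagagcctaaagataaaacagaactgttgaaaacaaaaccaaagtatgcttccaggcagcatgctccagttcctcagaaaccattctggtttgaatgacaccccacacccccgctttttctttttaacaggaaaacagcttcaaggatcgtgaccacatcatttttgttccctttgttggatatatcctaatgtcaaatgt
Icosl: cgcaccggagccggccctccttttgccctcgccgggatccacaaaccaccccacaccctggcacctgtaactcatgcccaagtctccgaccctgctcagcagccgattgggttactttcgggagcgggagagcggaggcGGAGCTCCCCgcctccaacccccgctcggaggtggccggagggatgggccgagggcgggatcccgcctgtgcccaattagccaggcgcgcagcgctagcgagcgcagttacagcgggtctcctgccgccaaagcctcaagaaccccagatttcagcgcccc

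Both strands of the 4 promoters were searched for motifs of factors tied to antigen receptor signaling: the NBRE element of the Nr4a family (AAAGGTCA), an AP-1 element (TGANTCA), an NFAT core (TGGAAA), an Egr element (GCGNGGGCG) and the kappa-B motif. The Pdcd1lg2 promoter held the kappa-B motif from -244 to -235 and that of Icosl from -111 to -102, counted from the start of transcription, and 8.46% of 32851 RefSeq mouse promoters of that length held it. The Cd80 promoter (chr16:38458683-38458982, plus strand) held an AP-1 match, TGATTCA, from -42 to -36, as 7.81% of all promoters held such a match. That window was set by a RefSeq start and lies inside the Cd80 gene, downstream of the GENCODE start given above. The Cd80 and Pdcd1lg2 matches were read on both strands at the same bases, and no match overlapped that of another motif. The letters of the other motifs were not in these windows, and their shares over all promoters were 1.51% for NBRE, 21.4% for the NFAT core and 5.55% for the Egr element; the Cd274 window held none of the 5.

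Transcript levels are in FPKM, a count of fragments divided by transcript length and by the mapped total, which allows levels of different genes to be set side by side. Without stimulation the order from high to low was Cd83, Cd86, Icosl, Cd274, Cd80 and Cd70 in both genotypes, from 620 FPKM for Cd83 to 0.07 FPKM for Cd70 in the wild-type library. After anti-IgM it was Cd83, Cd86, Cd274, Icosl, Cd80 and Cd70 in both genotypes, and the ranges of neighbours in that order did not overlap over 4 libraries. Cd83 was among the most abundant transcripts of these cells, at rank 76 of 17658 genes by mean FPKM in stimulated wild-type libraries. It made up 70.4% to 76.1% of the summed FPKM of the 6 genes in the unstimulated libraries and 83.2% to 85.3% in the stimulated ones. In bulk RNA, fewer cells of a type and less RNA per cell cannot be told apart.

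**Figure D1:**
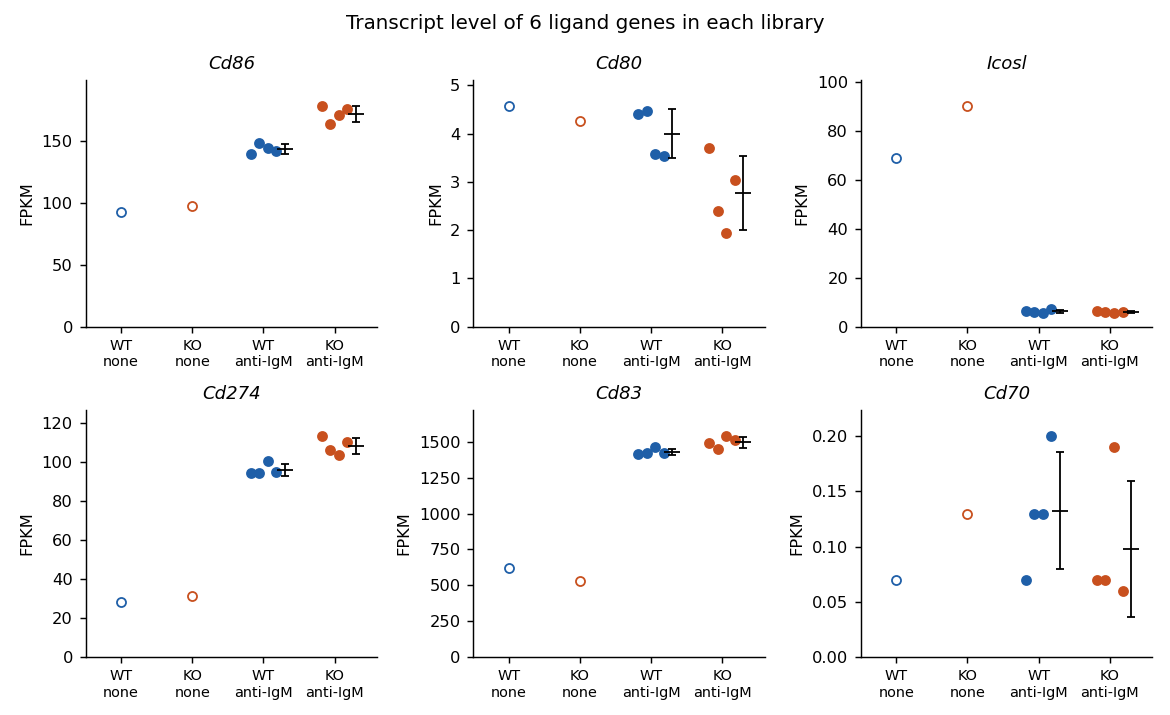
Level in FPKM (linear axis from 0, scaled per gene) of the 6 ligand genes in each of the 10 libraries, with open points for the lone unstimulated libraries, filled points for the 4 stimulated libraries per genotype (KO, labelled knockout) and bars for mean ± SD. Cd274 and Cd83 stood higher and Icosl lower after anti-IgM, and only Cd86 and Cd274 had stimulated groups that did not overlap.

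Changes with anti-IgM were tested with limma on log2(FPKM + 1) over all 10 libraries, a scale that understates changes of low genes, and a call needed a Benjamini-Hochberg adjusted p under 0.05 together with a log2 change of 1 or more in size. Of the 6 ligands, 5 passed the filter of a mean of at least 1 FPKM. Cd274 and Cd83 rose and Icosl fell, so 2 of 5 were called higher and 1 lower, against 7.94% and 12.4% of the 10225 genes tested. At an adjusted p under 0.05 alone Cd86 joined them, 4 of 5, where 78.9% of all tested genes passed. The median log2 change was 0.72 over the 5 ligands and -0.17 over all genes tested; that overall shift was -0.02 with median-of-ratios scaling and 0.0043 with quantile normalization. With those scalings 53.8% and 51.8% of called genes were higher, against 39.1% with the deposited FPKM.

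Cd86, the CD28 and CTLA-4 ligand with the higher level of the pair, had 92.7 FPKM in unstimulated wild type and 97.1 FPKM in its counterpart labelled knockout. With anti-IgM, libraries A to D of wild type had 139, 148, 144 and 141 FPKM (143 ± 4.05, SD, n = 4). The stimulated libraries labelled knockout had 178, 163, 170 and 175 FPKM (172 ± 6.39, SD, n = 4). Every stimulated library lay above both unstimulated ones, and every stimulated library labelled knockout lay above every stimulated wild-type library. The level was 1.54 times the unstimulated one in wild type and 1.77 times in the other genotype. Over both genotypes the log2 change was 0.72 (SE 0.0506, limma adjusted p = 1.49e-07), short of the size set for a call.

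Cd80, the other ligand of CD28 and CTLA-4, was a low transcript, with 4.57 FPKM in wild type without stimulation and 4.27 FPKM in the one labelled knockout. With anti-IgM, libraries A to D of wild type had 4.41, 4.46, 3.58 and 3.53 FPKM (3.995 ± 0.509, SD, n = 4), and the libraries labelled knockout had 3.70, 2.39, 1.94 and 3.04 FPKM (2.77 ± 0.768, SD, n = 4). All 8 stimulated libraries lay below the unstimulated library of their genotype, and the stimulated groups overlapped. The log2 change with anti-IgM was -0.33 (SE 0.158, limma adjusted p = 0.0727), which did not pass, and it was 0.079 with quantile normalization. The ratio of Cd86 to Cd80 in FPKM was 20.3 and 22.7 without stimulation, 36.3 ± 4.56 (SD, n = 4) in stimulated wild-type libraries and 65.5 ± 17.1 (SD, n = 4) in those labelled knockout; no test was made of this ratio.

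Icosl, the ICOS ligand, fell from a level close to that of Cd86 to one near that of Cd80. Without stimulation it had 68.9 FPKM in wild type and 90.1 FPKM in its counterpart labelled knockout. With anti-IgM, libraries A to D of wild type had 6.44, 5.84, 5.60 and 6.97 FPKM (6.21 ± 0.616, SD, n = 4). The libraries labelled knockout had 6.30, 6.08, 5.65 and 5.98 FPKM (6.00 ± 0.270, SD, n = 4). The stimulated groups overlapped, and the level without stimulation was 11.1 times the stimulated mean in wild type and 15.0 times in the other genotype. The log2 change over both genotypes was -3.49 (SE 0.0956, limma adjusted p = 1.28e-10).

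Cd274, which encodes PD-L1, rose from 28.2 FPKM in wild type and from 31.0 FPKM in the unstimulated library labelled knockout. With anti-IgM, libraries A to D of wild type had 94.4, 94.3, 101 and 95.1 FPKM (96.1 ± 3.09, SD, n = 4). The stimulated libraries labelled knockout had 113, 106, 104 and 111 FPKM (109 ± 4.28, SD, n = 4). The stimulated groups did not overlap, although the lowest library labelled knockout (103.85 FPKM) stood close to the highest wild-type library (100.73 FPKM). The stimulated mean was 3.41 times the unstimulated level in wild type and 3.50 times in the other genotype. The log2 change over both was 1.75 (SE 0.0431, limma adjusted p = 6.55e-11).

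Cd83 rose from 620 FPKM in wild type and from 529 FPKM in the unstimulated library labelled knockout. With anti-IgM, libraries A to D of wild type had 1418, 1428, 1464 and 1424 FPKM (1433 ± 20.7, SD, n = 4). The libraries labelled knockout had 1493, 1451, 1541 and 1512 FPKM (1499 ± 38.0, SD, n = 4). The groups overlapped through library B of those labelled knockout, which lay below wild-type library C. The stimulated mean was 2.31 times the unstimulated level in wild type and 2.83 times in the other genotype. The log2 change over both was 1.35 (SE 0.0606, limma adjusted p = 3.73e-09).

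Cd70, the CD27 ligand, was close to 0 in every library and was left out of the fits by the filter. It was listed at 0.07 FPKM for wild type without stimulation and 0.13 FPKM in the one labelled knockout, at 0.07, 0.13, 0.13 and 0.20 FPKM in stimulated wild type, and at 0.07, 0.07, 0.19 and 0.06 FPKM in their counterparts labelled knockout, both from A to D. Each value lay within 0.005 FPKM of 1, 2 or 3 times a step of 0.065 FPKM. The stimulated groups overlapped (two-sided exact permutation p = 0.343), and no difference was detectable at this level.

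The comparison of genotypes used the 8 stimulated libraries, with limma and a call at an adjusted p under 0.05. Cd86 and Cd274 were higher in the libraries labelled knockout, 2 of the 5 ligands tested and both without overlap between the groups. Over all tested genes 3.91% were called higher and 5.81% lower, and the groups did not overlap for 15.5%. The median log2 difference was 0.065 over the 5 ligands and -0.024 over all genes tested. Of all called genes 40.2% were higher, and with median-of-ratios scaling 57.2% were.

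Cd86 averaged 172 FPKM in the libraries labelled knockout and 143 FPKM in wild type, a log2 difference of 0.26 as the former minus the latter (SE 0.0322, 95% interval 0.19 to 0.33, limma adjusted p = 0.000843). The two-sided exact permutation test over 70 labellings gave p = 0.0286, the smallest it can give. Cd274 was 1.13 times as high in the libraries labelled knockout as in wild type, a log2 difference of 0.17 (SE 0.0342, 95% interval 0.096 to 0.25, limma adjusted p = 0.0120), with the same exact permutation p of 0.0286. In each case all 4 libraries labelled knockout lay above all 4 wild-type libraries, and the difference was smaller than the change with anti-IgM.

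For Cd83 the log2 difference was 0.065 (95% interval 0.0075 to 0.12, limma adjusted p = 0.167; exact permutation p = 0.0571). It passed with quantile normalization, at 0.091 (limma adjusted p = 0.0164). For Icosl it was -0.040 (95% interval -0.19 to 0.11, limma adjusted p = 0.785; exact permutation p = 0.657), and the sign turned without wild-type library D, to 0.0098. For Cd80 it was -0.42 (95% interval -0.74 to -0.11, limma adjusted p = 0.102; exact permutation p = 0.0857). Without library A of those labelled knockout, the Cd80 difference was -0.54 (limma adjusted p = 0.0344). The interval was widest for Cd80, the lowest of the 5 tested, and narrowest for Cd83, the highest.

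**Figure D2:**
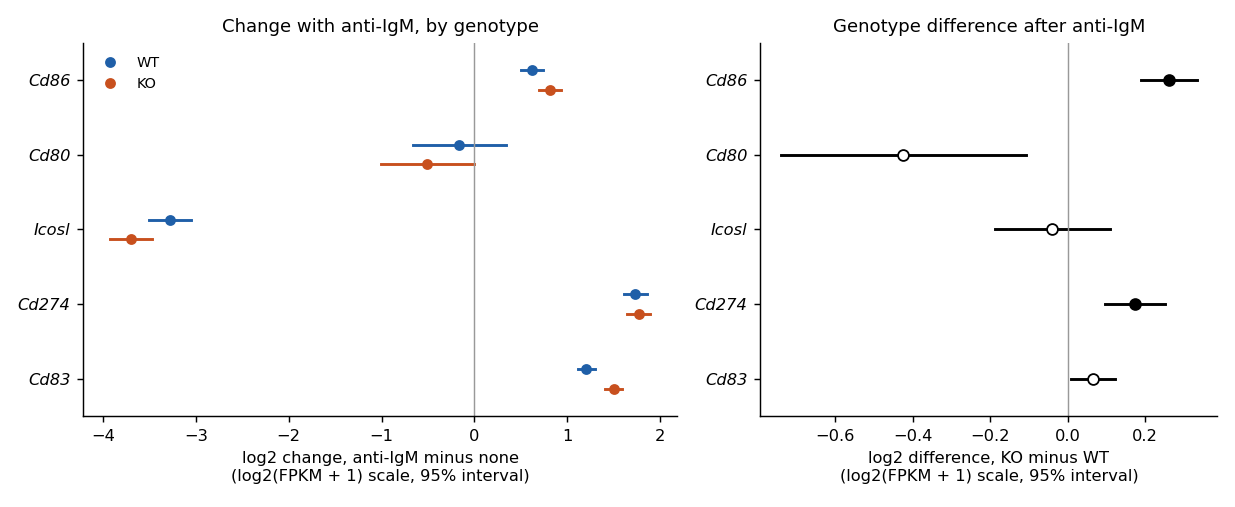
Left, log2 change with anti-IgM in wild type (WT) and in libraries labelled knockout (KO), each against 1 unstimulated library; right, log2 difference between genotypes over the 8 stimulated libraries, filled where the limma adjusted p was under 0.05, with 95% intervals throughout. Icosl fell by 3.28 and 3.70, Cd274 rose by 1.73 and 1.77, and in the right panel the Cd86 and Cd274 points are filled.

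Whether the change with anti-IgM differed between genotypes was tested with an interaction term over all 10 libraries, in which the lone unstimulated libraries were assumed to vary like the stimulated ones. Cd83 passed, 1 of 5 ligands, where 18.9% of all tested genes did. Its log2 change was 1.21 in wild type and 1.50 in the other genotype, a difference of 0.29 (SE 0.0559, limma adjusted p = 0.00803). That difference included the unstimulated pair, in which the library labelled knockout was 0.23 lower on the log2 scale, and it was 0.12 (limma adjusted p = 0.0695) once each library was rescaled to the same sum of FPKM. The interaction was 0.19 for Cd86 (limma adjusted p = 0.0917), and 0.22 without library B of those labelled knockout (limma adjusted p = 0.0455). For Icosl the unstimulated library labelled knockout was 0.38 higher on the log2 scale, and the genotype difference after anti-IgM was -0.040. Its interaction was -0.42, and -0.60 after rescaling to the same sum. For Cd274 it was 0.039 (limma adjusted p = 0.769), and -0.13 after that rescaling, and for Cd80 it was -0.34 (limma adjusted p = 0.493). The share of called genes whose interaction was positive was 22.1%, against 4.87% after rescaling to the same sum and 41.6% with median-of-ratios scaling.

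Other ligands of the B7 family were 2 of 2 called higher both with anti-IgM and between genotypes, among 4 listed genes of which 3 were in the table; over all tested genes 7.94% and 3.91% were called higher. Pdcd1lg2, the PD-L2 gene, had 4.91 FPKM in unstimulated wild type and 6.32 FPKM in its counterpart labelled knockout. After anti-IgM it had 19.7, 20.0, 20.1 and 19.3 FPKM in wild type and 27.1, 26.3, 26.8 and 26.9 FPKM in the libraries labelled knockout, with no overlap. Its log2 change with anti-IgM was 1.87 (limma adjusted p = 4.82e-11) and its difference between genotypes 0.42 (SE 0.0274, limma adjusted p = 2.55e-05). The ratio of Cd274 to Pdcd1lg2 in FPKM was 4.86 ± 0.140 (SD, n = 4) in stimulated wild-type libraries and 4.05 ± 0.135 (SD, n = 4) in those labelled knockout. Without stimulation it was 5.75 in wild type and 4.91 in the library labelled knockout, and no test was made of this ratio.

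Vsir, which encodes the inhibitory ligand VISTA and stands in the table under the older name 4632428N05Rik, had 3.99 and 4.96 FPKM without stimulation. It had 28.5, 27.6, 29.8 and 29.5 FPKM in stimulated wild-type libraries and 40.4, 37.1, 41.7 and 37.9 FPKM in those labelled knockout. Again the groups did not overlap. The log2 change with anti-IgM was 2.67 (limma adjusted p = 3.49e-11), larger than the rise of Cd274 or Cd83, and the log2 difference between genotypes was 0.43 (SE 0.0425, limma adjusted p = 0.000237). For 4632428N05Rik the interaction was 0.17 (limma adjusted p = 0.255), and for Pdcd1lg2 it was 0.11 (limma adjusted p = 0.285).

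Of 16 TNF superfamily ligands other than Cd70, 4 passed the filter. Tnf, a secreted and membrane-bound inflammatory cytokine, rose with anti-IgM (log2 change 1.04, limma adjusted p = 3.11e-06), though its change was under the size for a call without wild-type library B (0.999) and with a pseudocount of 5 (0.91). Without stimulation Tnf was already higher in the library labelled knockout, at 22.6 FPKM against 14.8 FPKM in wild type. Its level was 32.5 ± 4.37 FPKM (SD, n = 4) in stimulated wild-type libraries and 46.5 ± 5.02 FPKM (SD, n = 4) in those labelled knockout, a log2 difference of 0.51 (limma adjusted p = 0.0103). The interaction for Tnf was -0.074. Lta, which encodes lymphotoxin alpha, was also higher in the libraries labelled knockout, at 10.9, 11.9, 12.9 and 13.4 FPKM against 8.39, 8.08, 8.66 and 7.81 FPKM in wild type, a log2 difference of 0.52 (limma adjusted p = 0.000708). Its log2 change with anti-IgM was -0.14 (limma adjusted p = 0.191). Ltb, which encodes the partner chain lymphotoxin beta, fell with anti-IgM, by 2.29 on the log2 scale (limma adjusted p = 4.82e-11).

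Of 11 other costimulatory or inhibitory surface ligands and receptors, 10 passed the filter, with 1 called higher and 5 lower after anti-IgM, against 7.94% and 12.4% of all tested genes. Cd72, an inhibitory B cell receptor, rose by 1.04 on the log2 scale, by 0.99 without the unstimulated library labelled knockout and by 0.90 with quantile normalization. Btla, an inhibitory receptor for HVEM, fell by 1.43, Lgals9 (galectin-9) fell by 1.24 and Cd200, the ligand of an inhibitory myeloid receptor, fell by 2.07. Cd47, the ligand of SIRP alpha, fell by 1.27 and Cd48, a ligand of CD2 family receptors, fell by 1.53. Between genotypes 2 were higher in the libraries labelled knockout, Btla (log2 difference 0.16, limma adjusted p = 0.00846) and Cd72 (0.15, limma adjusted p = 0.00381), and 2 were lower, against 3.91% and 5.81% of all tested genes. Cd40, the receptor for T cell help, had 43.7 ± 2.48 FPKM (SD, n = 4) in stimulated wild-type libraries and 33.1 ± 1.16 FPKM (SD, n = 4) in those labelled knockout, a log2 difference of -0.39 (limma adjusted p = 0.000445). Cd47 differed by -0.20 (limma adjusted p = 0.0258), a call that was lost without wild-type library B or D or without library C or D of those labelled knockout, where the limma adjusted p was 0.0735, 0.0777, 0.0569 and 0.0598. It was also lost with median-of-ratios scaling (limma adjusted p = 0.0512) and with no filter on low values (limma adjusted p = 0.0613).

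**Figure D3:**
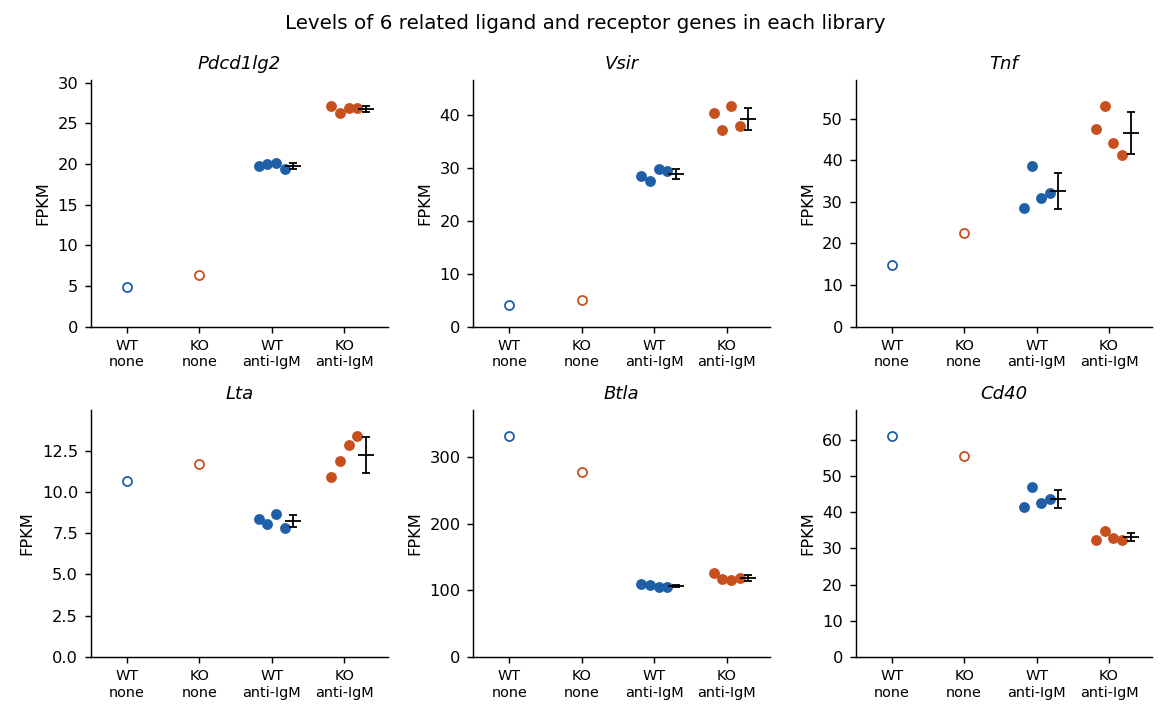
Level in FPKM (linear axis from 0, scaled per gene) of 6 related genes, of the 9 listed genes called between genotypes, in each of the 10 libraries, with open points for the lone unstimulated libraries and bars for mean ± SD of 4 stimulated libraries. Pdcd1lg2, Vsir, Tnf, Lta and Btla were higher in the libraries labelled knockout (KO) than in wild type (WT) after anti-IgM, and Cd40 was lower, without overlap.

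Of 6 genes that act on the surface level of these ligands, 4 passed the filter. March1, whose product ubiquitinates CD86, had 75.0 FPKM in unstimulated wild type and 68.2 FPKM in its counterpart labelled knockout. After anti-IgM it ranged from 5.25 to 6.39 FPKM in wild type and from 4.85 to 5.59 FPKM in the libraries labelled knockout, and its log2 change was -3.49 (limma adjusted p = 2.86e-11). Adam10, a protease that sheds surface proteins, was called between genotypes, with a log2 difference of 0.15 (limma adjusted p = 0.00346). The 5 T cell receptors listed for these ligands, Cd28, Ctla4, Icos, Pdcd1 and Cd27, all stayed under the filter, and none was listed for CD83. Ctla4 was just under it, with a mean of 0.994 FPKM. After anti-IgM Ctla4 was 0.66 to 0.83 FPKM in wild type and 0.99 to 1.77 FPKM in the libraries labelled knockout. Pdcd1 was also higher in the latter without overlap, at 0.41 to 0.90 FPKM against 0.10 to 0.34 FPKM in wild type. Cd27 was lower without overlap, at 0.43 to 0.68 FPKM against 0.78 to 1.01 FPKM in wild type, and Cd28 and Icos overlapped. All 5 were left out of the fits, and among tested genes the groups did not overlap for 15.5%. Over all 41 listed genes found in the table, 20 were tested, of which 4 were called higher and 7 lower with anti-IgM and 7 higher and 2 lower between genotypes, against 7.94%, 12.4%, 3.91% and 5.81% of all tested genes in the same order.

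**Figure D4:**
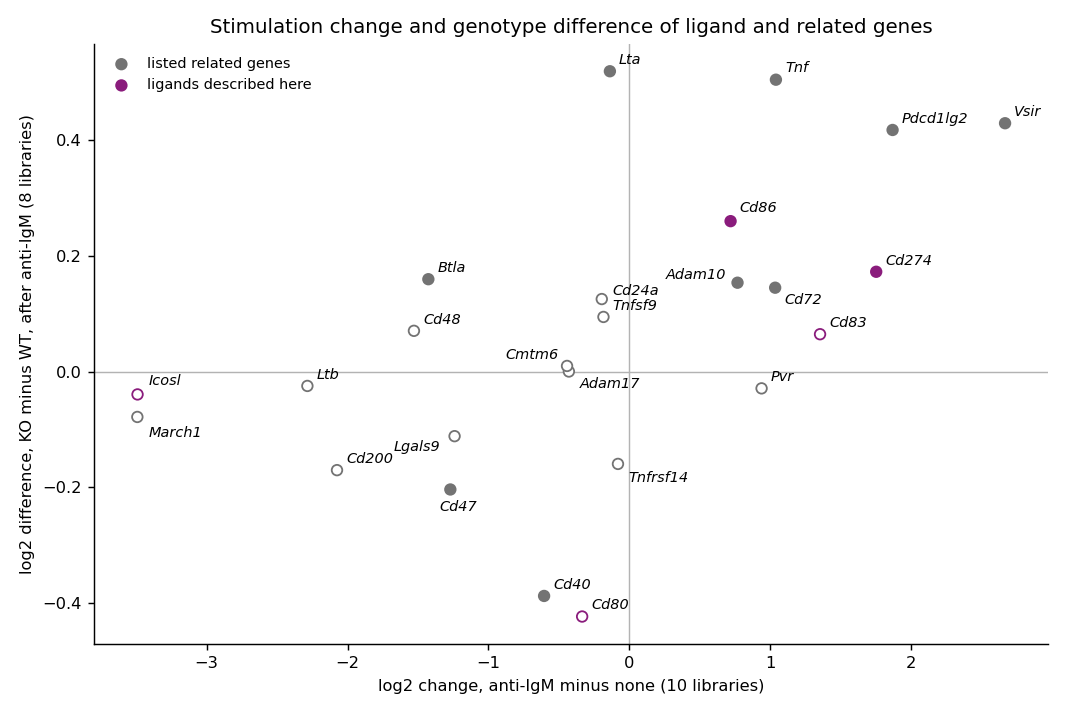
For each of the 25 tested genes, the log2 change with anti-IgM over 10 libraries (horizontal) against the log2 difference between genotypes, KO (labelled knockout) minus WT, over the 8 stimulated libraries (vertical); purple marks the ligands described here, and filled points have a limma adjusted p under 0.05 between genotypes. Both axes use the same stimulated libraries, so no relation is read from the plot; Vsir, Pdcd1lg2 and Tnf lie at the upper right, Icosl and March1 at the far left, and Cd80 and Cd40 lowest.

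The genes whose levels ran closest to each ligand over the 10 libraries were found by the root-mean-square difference of mean-centred log2(FPKM + 1) profiles. For Icosl these were March1 (0.140) and B3gnt8 (0.160). For Cd83 they were Timm23 (0.0237), a subunit of mitochondrial protein import, Nop58 (0.0387), a core protein of small nucleolar ribonucleoproteins, and Eif4e (0.0432), the cap-binding translation factor. For Cd274 they were Ksr1 (0.0382), a scaffold of the MAP kinase pathway, and Sec24a (0.0426), a coat protein of vesicles leaving the endoplasmic reticulum. For Cd86 they were Rapgef6 (0.0562), Ncf1 (0.0675), a subunit of the phagocyte NADPH oxidase, and Tank (0.0677), an adaptor of TRAF signaling. For Cd80 the closest, BC058545 (0.138), Hist2h2aa2 (0.142) and Eef2k (0.145), were farther away than those of Cd86, Cd274 and Cd83.

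Markers of the labelled cell type were present: 8 of 8 B cell markers were tested, with a summed level of 4324 and 4121 FPKM without stimulation, 1837 to 1903 FPKM in stimulated wild-type libraries and 1793 to 1920 FPKM in those labelled knockout. All 6 T cell markers stayed under 1 FPKM in every library. Dendritic cells also carry these ligands. The summed level of 7 dendritic cell markers was 8.36 and 9.22 FPKM without stimulation, 14.2 to 15.2 FPKM in stimulated wild-type libraries and 15.0 to 17.0 FPKM in those labelled knockout, with 4 of the 7 under 1 FPKM in every library and none at 0 in all. Zbtb46, a transcription factor of conventional dendritic cells, was at 2.35 and 3.35 FPKM without stimulation, 8.33 ± 0.402 FPKM (SD, n = 4) in stimulated wild type and 11.2 ± 0.932 FPKM (SD, n = 4) in those labelled knockout, without overlap. Flt3, a cytokine receptor of dendritic cell progenitors, differed the other way without overlap, at 3.73 ± 0.346 FPKM (SD, n = 4) in stimulated wild type and 2.48 ± 0.224 FPKM (SD, n = 4) in those labelled knockout. Itgax, the CD11c gene, was at 1.90 ± 0.276 FPKM and 1.45 ± 0.325 FPKM (SD, n = 4 each), with overlap. Markers of macrophages, monocytes and neutrophils summed to 95.6 and 111 FPKM without stimulation and to 56.9 to 164 FPKM and 33.5 to 122 FPKM after it, in the same order, with overlap. Between the stimulated genotypes the sums overlapped for those cell types. Of the B cell markers, Cd79b was lower in the libraries labelled knockout, at 293 to 326 against 365 to 390 FPKM in wild type. Its log2 difference was -0.32 (limma adjusted p = 0.00054), and the other B cell markers overlapped. The sums of 4 B-1 cell markers did not overlap. They were 27.7 to 29.5 FPKM in wild type and 32.2 to 34.5 FPKM in the libraries labelled knockout. Without stimulation they were 9.92 and 10.76 FPKM, so this sum rose with anti-IgM in both genotypes. Of these markers, Plscr1 and Cd5 were higher in the libraries labelled knockout without overlap. Both also rose with anti-IgM, by 1.28 and 1.97 on the log2 scale. Bhlhe41 was lower without overlap (2.98 ± 0.212 and 2.44 ± 0.142 FPKM, SD, n = 4 each), and Zbtb32 overlapped. Whether the sum followed cell content or the response to anti-IgM was not tested. Fcer2a, the CD23 gene and a marker of follicular B cells, ranged from 216 to 243 FPKM in stimulated wild type and from 246 to 251 FPKM in those labelled knockout. The sums of 5 marginal zone B cell markers overlapped, at 173.77 to 193.66 FPKM in stimulated wild type and 150.5 to 178.55 FPKM in those labelled knockout. Of these, Cr2 (log2 difference -0.52) and Dtx1 (-0.14) were lower in the latter without overlap. S1pr3 (0.52) was higher without overlap, and Cd1d1 and Cd9 overlapped. The part of these markers in the values of Cd86 and Cd274 was not tested.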

How the data were processed

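RNA of 10 libraries was sequenced after preparation with a stranded kit for polyadenylated RNA, per the labels' protocols. The authors deposited 1 table of FPKM per gene with 2 decimals; STAR 2.4, RSEM 1.2.14 and the mm10 genome are named in the submitters' processing notes. Which annotation, filters and strand setting were used is not given in the sources used here. FPKM carry no read totals and whole reads were not recovered, so the depth is unknown and no count model was used. The summed FPKM was 557214 to 571784 in stimulated libraries, 674961 in the unstimulated wild-type library and 595500 in its counterpart labelled knockout. Every column name matched 1 sample, no 2 libraries were identical and the highest correlation between libraries was 0.993.

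Genes whose mean over the 10 libraries reached 1 FPKM (10225 of 17658) were fitted as log2(FPKM + 1) with limma 3.58.1 in R 4.3.3 (lmFit, eBayes with trend), after checks on simulated data. Tests were two-sided, with Benjamini-Hochberg adjustment over all genes tested. Anti-IgM was tested over 10 libraries with genotype as a term, genotype over 8 stimulated libraries, and their interaction in a fit with 4 groups. Single values were compared by exact permutation over 70 labellings. Named genes are the 6 ligands, members of the lists past a call rule, members needed for the order of levels, and the 3 closest profiles per ligand. Nr4a1, the 5 listed receptors and some of the cell type markers are also named, without a call rule. Of the closest profiles, 2 are not reported here. The ligands and lists were chosen with earlier results of these data known. Coordinates came from GENCODE M21 and promoters from RefSeq. Alternatives changed the pseudocount (0.1 or 5), the filter, the scaling, the variance model and the libraries included.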

Additional observations from a re-analysis of the deposited data

Results flagged for a closer look

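In 3 of 52 groups of 4 stimulated libraries, over the ligands and related genes, 1 library lay far from the other 3 by Dixon's criterion, where chance gives about 2.6. Cd274 was 100.73 FPKM in wild-type library C and 94.33 to 95.10 FPKM in the other wild-type libraries. Cd70 was 0.19 FPKM in library C of those labelled knockout and 0.06 to 0.07 FPKM in the others. Cd48 was 31.08 FPKM in library B of those labelled knockout and 27.75 to 28.15 FPKM in the others.

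The change with anti-IgM differed between genotypes by the interaction test for Cd83 and 4 of the 20 related genes tested. Each value rests on 1 unstimulated library per genotype, and 18.9% of all tested genes passed. On the log2 scale, as libraries labelled knockout minus wild type, the difference was 0.29 for Cd83 (limma adjusted p = 0.00803). For Btla, the inhibitory HVEM receptor, it was 0.41 (limma adjusted p = 0.00421), as Btla fell by 1.63 in wild type and fell by 1.22 in the other genotype. For Cd48 it was 0.44 (limma adjusted p = 0.0171), as Cd48 fell by 1.75 and fell by 1.31, and it was 0.26 (limma adjusted p = 0.0734) after rescaling to the same sum. For Cd24a, a glycoprotein of immature and resting B cells, it was 0.40 (limma adjusted p = 0.0183), and 0.23 (limma adjusted p = 0.0792) after that rescaling. For Cmtm6, whose product stabilizes PD-L1 at the membrane, it was -0.32 (limma adjusted p = 0.00761), with log2 changes of -0.28 in wild type and -0.60 in the other genotype.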

How the results depend on the processing

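The changes of Cd274, Cd83 and Icosl with anti-IgM passed in all 24 alternatives, and the Cd86 difference between genotypes in all 21, at 0.24 to 0.30. Genes called with anti-IgM numbered 2078, and 1132 with a pseudocount of 5. With quantile normalization the Cd80 change with anti-IgM was 0.079, the Icosl genotype difference 0.0053 and that of Cd83 0.091. The letters did not pair the libraries: the correlation of same-lettered deviations over 10225 genes was -0.021, 0.045, 0.0075 and -0.12 for A to D, and not every library correlated best with its own letter. With the letter as a replicate block 1 ligand was called between genotypes in place of 2, the Cd274 difference being 0.17 (limma adjusted p = 0.0526), and the interaction was called for 1238 genes in place of 1931; Tnf with anti-IgM (0.97) and Cd47 between genotypes (limma adjusted p = 0.0699) also lost their calls. Rescaled to the same sum, or with 3 tested immunoglobulin genes left out first, the interaction was called for 3637 and 3644 genes. It was then -0.60 in both for Icosl, -0.13 in both for Cd274 and 0.12 in both for Cd83. The Icosl interaction passed at -0.39 with a pseudocount of 5 and at -0.42 with a mean of at least 5 FPKM, which made 2 ligands called in each in place of 1. Leaving out 1 library in turn gave 2 to 3 ligands called between genotypes and 1 to 2 by interaction; the genotype difference ranged from -0.54 to -0.31 for Cd80 and from -0.081 to 0.0098 for Icosl, and the interaction from -0.46 to -0.37 for Icosl and from 0.18 to 0.22 for Cd86. The causes were not tested. A mean of at least 5 FPKM gives no value for Cd80, and Cd70 was fitted only without a filter. FPKM near 0, as for Cd70, and the lone unstimulated libraries limit these values.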
